A study of Mus musculus with 18 samples.

Results

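The change of the heart transcriptome with postnatal age under hypoxia was followed by setting 5 hypoxic samples at postnatal day 30 (P30, numbers 1 to 5) against 5 hypoxic samples at postnatal day 8 (P8, numbers 4 to 8). These are 10 of the 18 samples of the series. The remaining samples, 4 normoxic P30 hearts (numbers 2 to 5) and 4 normoxic P8 hearts (numbers 13, 22, 23 and 24), give the course with age in normal air. All samples are mouse heart RNA on Clariom S arrays, which measure transcripts genome-wide with short probes. Hypoxia was 11% oxygen, and the title of the series places it around birth and asks about the maturation of the heart. The labels name no strain, sex or part of the heart, and do not say whether the P30 mice stayed in hypoxia throughout or whether each sample is a separate animal. P-values therefore measure the spread between these samples, which may be technical.

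In the weeks after birth the mouse heart passes from growth by cell division to growth by enlargement of its muscle cells. Cardiomyocytes replace fetal by adult isoforms of contractile proteins, add mitochondria, turn from glucose and lactate to fatty acids as fuel, and build up the creatine kinase shuttle, the sarcoplasmic reticulum and the potassium currents that shorten the action potential. Imprinted growth genes that are active in the fetus are silenced over the same time. Low oxygen acts through the hypoxia-inducible factors (HIF), which raise glucose uptake, glycolysis and lactate export.

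Values were available for 4704 probes, 21.2% of the 22205 tests on the array, and they are a selected set: for each probe, the brightest group mean exceeded the dimmest by 0.46 or more in log2 units. A probe here stands for 1 transcript cluster. Gene names could be given to 2562 genes, each of which the authors had listed for a difference between hypoxia and normoxia at 1 of the ages (unadjusted p up to 0.05). That choice uses the same samples. Its contrasts of hypoxia with normoxia also make up the difference of the age effect, the hypoxic change with age less the normoxic one. Shares of unnamed probes are therefore given beside those of all named genes in hypoxia and for that difference. Counts within gene lists are set only against named genes, which were chosen in the same way, so list counts of that difference are favoured by the choice. Differences are given as P30 minus P8 of log2 signal with the standard error (SE) of the linear model, and a probe is called where its adjusted p is at most 0.05. Array medians were 7.38 to 7.62 in hypoxic P30, 7.87 to 8.07 in hypoxic P8, 7.60 to 7.69 in normoxic P30 and 7.49 to 7.69 in normoxic P8 samples. No scan or processing batch is recorded, so batch and age cannot be told apart. Of 18 cardiomyocyte markers 5 were in the table (Myh7, Ryr2, Ttn, Nkx2-5 and Gata4), with a mean log2 signal of 13.19 to 13.47 in hypoxic P30 and 13.11 to 13.68 in hypoxic P8 samples, and none of 15 skeletal muscle markers was. Since the table is a selection, the presence or absence of a marker in it does not check the tissue.

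In hypoxia 1237 probes (26.3%) were higher at P30 and 2067 (43.9%) were lower, and among named genes 501 (19.6%) were higher and 1184 (46.2%) lower. Among the 2031 probes with no symbol the shares were 34.6% higher and 41.3% lower. The median difference over all probes was -0.50, and -0.59 over named genes, so the values below stand against a downward shift of the whole table. Counts within gene lists stand against these shares of named genes in hypoxia, and against 13.8% higher and 14.1% lower in normoxia. With each array centred on its median the shift was -0.03 and the split turned to 1818 higher (38.6%) and 1145 lower (24.3%), and to 31.7% and 28.7% of named genes. With quantile normalization the shift was -0.16 and the split 1602 higher (34.1%) and 1285 lower (27.3%), or 25.6% and 31.5% of named genes. Among named genes 490 were called higher and 729 called lower under all 3 scalings. Hypoxic P8 samples 4 and 5 stood apart in interferon-induced genes, as described further on, and without them 1021 probes were higher (21.7%) and 1805 lower (38.4%), or 16.8% and 41.1% of named genes.

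Among the 105 genes chosen by the naming rule, Tnni1 and Mest fell furthest with age under hypoxia. Tnni1, the slow skeletal troponin I that the fetal heart uses before cardiac troponin I, had log2 signals of 3.94, 2.67, 3.20, 4.25 and 2.57 in hypoxic P30 samples, against 16.66, 15.55, 16.15, 14.54 and 15.66 in hypoxic P8 samples. Every P30 sample lay at the dim end of the table, whose 25th percentile is 5.48, and every P8 sample lay among bright genes. The difference was -12.39 ± 0.56 (SE, adjusted p = 1.57e-11). In normoxia the signals were 3.57, 3.18, 4.17 and 3.16 at P30, against 13.83, 13.23, 10.44 and 10.69 at P8. The normoxic fall of 8.53 on the log2 scale was smaller than the hypoxic one by the test of the difference (-3.86 ± 0.83, adjusted p = 0.0252), and the P30 samples of both oxygen groups overlapped. That last call ended when any of 5 single samples was left out (adjusted p 0.0519 to 0.0574).

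All 9 measured genes of the imprinted and fetal growth list fell in hypoxia, with a median of -4.38. Igf2, the fetal growth factor, had signals of 12.27 to 13.08 in hypoxic P30 samples and 17.32 to 19.47 in hypoxic P8 samples, a difference of -5.74 ± 0.32 (adjusted p = 4.46e-10). Mest, an imprinted hydrolase of the embryonic mesoderm, had signals of 9.68, 9.47, 9.90, 10.63 and 9.44 in hypoxic P30 samples, against 16.92, 15.57, 19.60, 18.91 and 18.64 in hypoxic P8 samples. The groups were far apart, although the P8 samples themselves spanned a wide range. The Mest difference was -8.10 ± 0.66, or 275-fold lower. Plagl1, a zinc finger regulator of imprinted genes, fell by 6.07, and the amino acid transporter gene Slc38a4 fell by 4.83. Grb10, Peg3, Igf2r, Igf2bp2 and Igf2bp3 fell by 2.02 to 4.38. In normoxia 7 of the 9 fell (background among named genes 14.1% lower and 13.8% higher), with a median of -2.27. The difference of the age effect was called lower for 3 of them, Mest, Grb10 and Igf2bp2, against 7.57% of named genes, and for none with centred or quantile-normalized arrays.

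Genes of the adult cardiomyocyte rose over the same interval. Rpl3l, the striated muscle form of a large ribosomal subunit protein, had signals of 13.06, 12.47, 12.80, 12.03 and 13.09 in hypoxic P30 samples, against 6.76, 5.50, 5.97, 6.54 and 6.50 in hypoxic P8 samples. No sample of one age came near the other, and the rise of 6.44 ± 0.35, or 86.6-fold (adjusted p = 3.6e-10), was the largest among named genes that met the brightness rule for naming. Ckmt2, the mitochondrial creatine kinase of muscle, had signals of 17.41 to 18.18 in hypoxic P30 and 12.35 to 13.66 in hypoxic P8 samples. It rose by 4.61 ± 0.35, against 2.45 ± 0.39 in normoxia. The difference of the age effect, 2.16 ± 0.53, was not called by limma on the deposited values (adjusted p = 0.0507). It was called with quantile-normalized (0.0222) and centred arrays (0.012). The adult cardiomyocyte list counted 7 higher and 2 lower of 11 measured genes in hypoxia (median 2.03), and 5 higher and none lower in normoxia (median 1.07). Its risers were Art1, a muscle ADP-ribosyltransferase (4.74), Ckmt2, Phkg1 (3.41) and Pygm (1.56) of glycogen breakdown, Hrc (3.38), and the regulators of mitochondrial and fatty acid genes Ppargc1a (2.39) and Ppara (2.03). Those that fell were Ckb (-1.44), the creatine kinase of non-muscle tissues, and Cox8a (-1.88), the widely expressed form of a cytochrome oxidase subunit.

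Contractile genes moved in both directions. Of 14 measured sarcomere genes, 5 rose and 2 fell in hypoxia, against 19.6% and 46.2% of named genes, and the median was 0.05. Ttn, the giant elastic protein of the sarcomere, had signals of 18.72 to 18.93 in hypoxic P30 samples and of 17.56, 17.23, 14.58, 16.05 and 15.70 in hypoxic P8 samples. The P30 samples were nearly equal and the P8 samples widely spread, and the rise was 2.60 ± 0.40 (adjusted p = 7.91e-05). Xirp2, an actin-binding protein of the intercalated disc, rose by 3.13. Tpm2, a tropomyosin, fell with Tnni1. Myh7, the fetal myosin heavy chain of the mouse ventricle, did not pass the test: its signals were 16.55 to 17.42 in hypoxic P30 and 16.97 to 18.02 in hypoxic P8 samples, a difference of -0.39 ± 0.36. In normoxia Myh7 was 14.85 to 16.19 at P30 and 15.27 to 17.62 at P8, which also did not pass.

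Further genes were among the large rises in hypoxia. Fbxo32, a ubiquitin ligase of muscle atrophy, rose by 3.85, Cmya5, a muscle protein of the costamere, by 3.69, Slc38a3, a glutamine transporter, by 3.81, and Timp4, a metalloproteinase inhibitor abundant in heart, by 3.78. Mme, a membrane peptidase, also rose, by 3.52. Normoxic rises were 3.18 for Fbxo32, 2.16 for Cmya5, 3.74 for Slc38a3 and 4.50 for Timp4, and 1.58 for Mme with overlapping ages. No difference of the age effect was called for these genes on the deposited values, and with centred arrays those of Cmya5 and Mme were. Aqp1, the water channel of capillary endothelium, had signals of 13.66, 13.12, 13.72, 12.97 and 14.00 in hypoxic P30 samples, against 7.29, 6.41, 9.19, 8.64 and 7.55 in hypoxic P8 samples. In normoxia Aqp1 was 12.77 to 13.50 at P30 and 9.92 to 11.72 at P8, so that hypoxic and normoxic hearts overlapped at P30 and lay apart at P8. The rise of 5.68 ± 0.43 in hypoxia exceeded the normoxic rise of 2.00 ± 0.48, with a difference of 3.68 ± 0.64 (adjusted p = 0.00714).

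**Figure D1:**
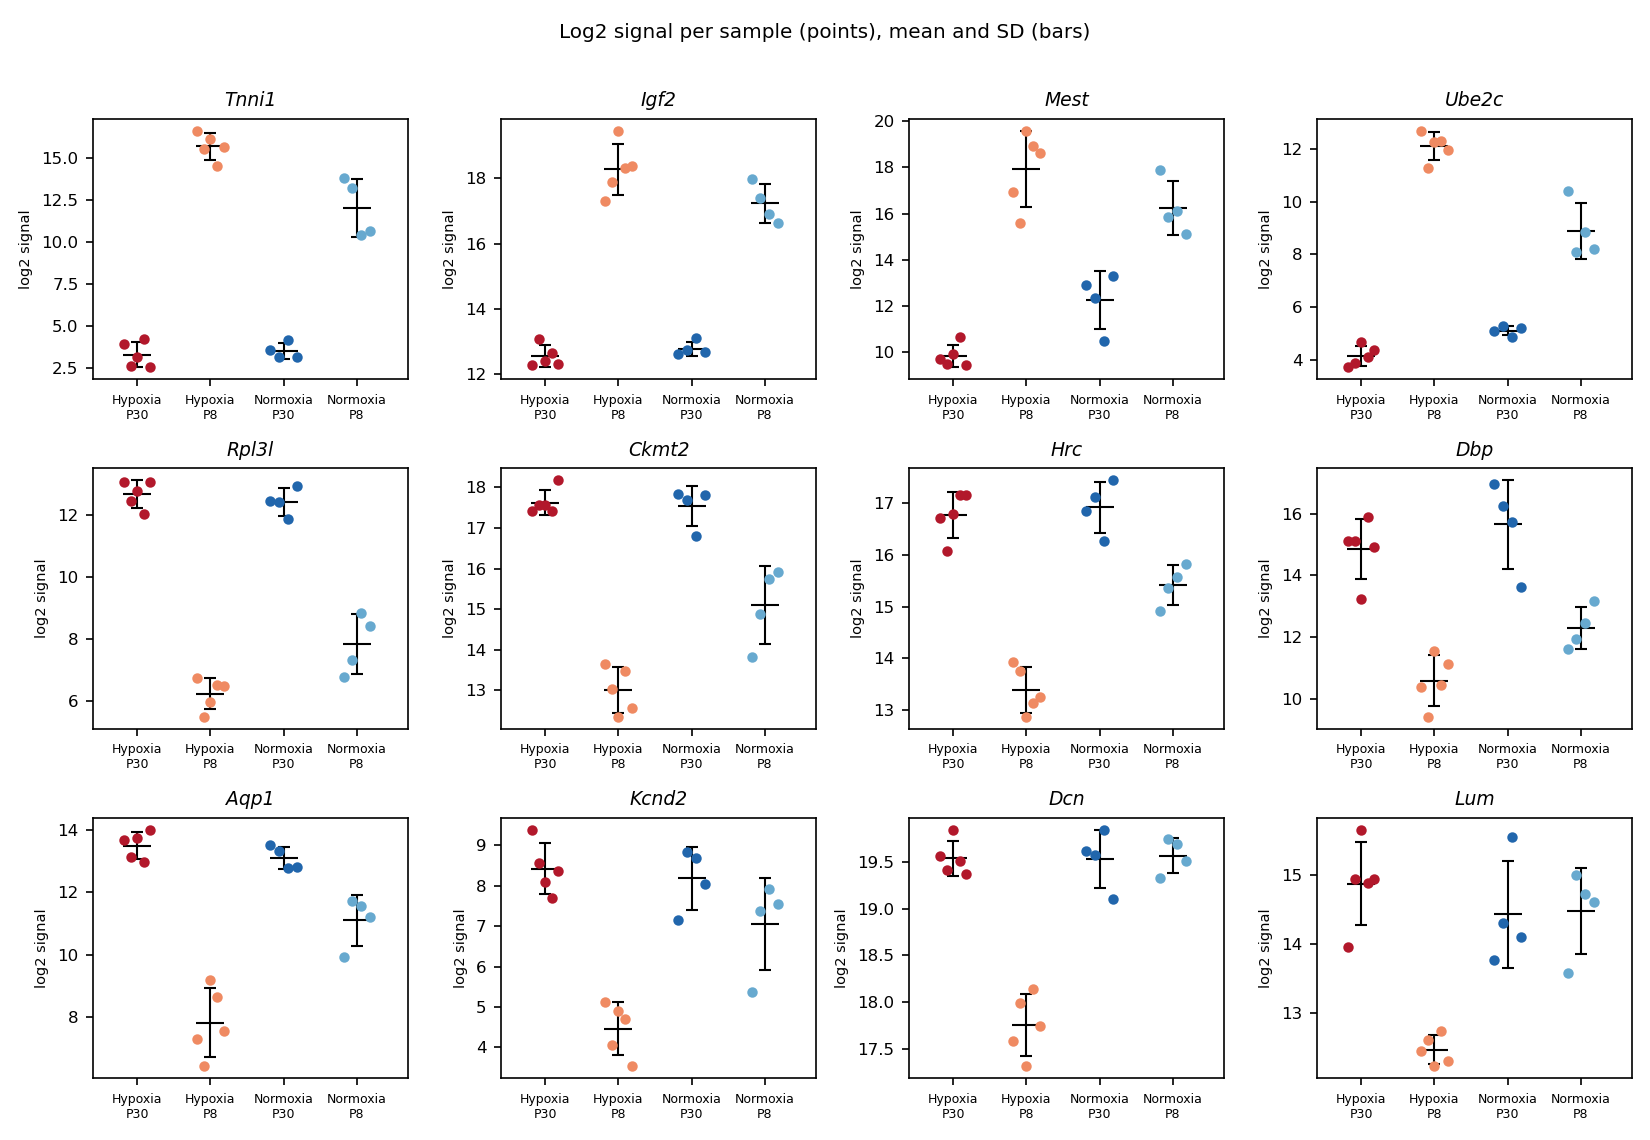
Log2 signal (vertical axes) of 12 genes in each sample (points), by group, with the group mean and SD (black bars). In Tnni1, Igf2, Mest and Ube2c every hypoxic P30 sample lies below every hypoxic P8 sample, and in the other 8 genes above. The P30 samples of both oxygen groups overlap in all of these genes except Ube2c.

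Genes of cell division fell as a group. All 71 measured genes of the mitosis list were lower at P30 in hypoxia, with a median of -2.91. With centred arrays 66 were lower and with quantile normalization 70, and none was higher under either. Ube2c, the ubiquitin-conjugating enzyme of the anaphase-promoting complex, had signals of 3.74, 3.89, 4.68, 4.14 and 4.41 in hypoxic P30 samples, against 12.68, 11.27, 12.25, 12.28 and 11.93 in hypoxic P8 samples. The fall of 7.91 ± 0.35 on the log2 scale (adjusted p = 1.57e-11) compared with one of 3.76 ± 0.39 in normoxia. Ccna2, cyclin A2, fell by 6.82, Racgap1, an organiser of cytokinesis, by 5.12, Plk1, the polo-like kinase, by 4.97, Bub1b of the spindle checkpoint by 4.94 and Cdk1, the mitotic kinase, by 4.89. At the other end Kifc1, Ncapg2 and Kif14 fell by 1.06 to 1.22. In normoxia 35 of the 71 were lower and none higher, with a median of -1.22. Leaving out single samples gave 21 to 36 lower and medians of -1.41 to -0.87.

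The mitosis genes were brightest in hypoxic P8 samples. The mean of the list was 4.48 to 4.68 in hypoxic P30, 7.35 to 8.06 in hypoxic P8, 4.61 to 5.08 in normoxic P30 and 5.67 to 7.23 in normoxic P8 samples. Among normoxic P8 samples number 13 was at 7.23, and the others were at 5.67 to 5.92. The difference of the age effect was called lower for 20 of the 71 and higher for none, against 7.57% and 1.44% of named genes. This count was 12 with centred and 11 with quantile-normalized arrays, against 3.51% and 3.28% of named genes called lower under those scalings, and 13 to 45 when single samples were left out. Besides Ube2c (-4.15 ± 0.53, adjusted p = 0.000396), Ccna2 (-3.70) and Cdca3 (-2.75), the 20 included the cyclins Ccnb1 and Ccnb2 and the kinases Plk1, Aurka and Nek2.

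The replication genes behaved likewise: 29 of 31 were lower in hypoxia (25 with centred arrays), with a median of -2.19, and none was higher. Rrm2, the regulated subunit of ribonucleotide reductase, had signals of 5.14 to 6.14 in hypoxic P30 and 10.71 to 11.66 in hypoxic P8 samples, a fall of 5.54 ± 0.37 (adjusted p = 5.19e-09). Prim1, the primase catalytic subunit, fell by 3.60 and E2f8, an E2F repressor, by 3.67, and the helicase subunits Mcm2, Mcm3 and Mcm5 fell by 3.21, 2.57 and 3.34. Fancd2 (-0.69) and Rad51ap1 (-0.88), both of DNA repair, did not pass. In normoxia 10 of the 31 were lower (4 to 11 when single samples were left out). A difference of the age effect was called for Rrm2 (-3.18), Prim1 (-2.58) and E2f7 (-1.70), a share near the 7.57% of named genes. The count was 2 to 8 when single samples were left out and 1 with quantile normalization. That of Prim1 ended with quantile normalization (adjusted p = 0.0606).

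Because the mitosis genes moved together, the sequences around the starts of 3 of them are shown, from RefSeq on GRCm38.p6, each running from 250 bases before to 50 bases after the start in the direction of transcription. They are the 3 mitosis members with the largest statistic of the hypoxic difference among those with an entry. Capitals mark the letters CCAAT and TTTGAA on either strand (ATTGG and TTCAAA on the other strand), where neighbouring matches may overlap. CCAAT is the word bound by the factor NF-Y, and TTTGAA is the core of the cell cycle homology region. Ube2c lies at chr2:164769679-164769978 on the + strand, Cdca3 at chr6:124829926-124830225 on the + strand and Arhgap11a at chr2:113848612-113848911 on the - strand.
Ube2c: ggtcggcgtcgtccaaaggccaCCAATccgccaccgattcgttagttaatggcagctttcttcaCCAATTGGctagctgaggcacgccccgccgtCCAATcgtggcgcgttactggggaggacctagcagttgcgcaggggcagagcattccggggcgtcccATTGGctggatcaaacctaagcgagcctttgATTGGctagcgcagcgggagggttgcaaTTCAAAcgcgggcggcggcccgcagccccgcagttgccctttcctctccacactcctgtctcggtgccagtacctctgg
Cdca3: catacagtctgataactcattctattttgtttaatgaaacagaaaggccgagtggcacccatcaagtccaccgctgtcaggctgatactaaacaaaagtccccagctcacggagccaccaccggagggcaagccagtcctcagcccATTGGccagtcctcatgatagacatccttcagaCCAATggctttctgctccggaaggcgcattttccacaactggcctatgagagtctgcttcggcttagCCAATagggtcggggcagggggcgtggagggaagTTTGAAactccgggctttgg
Arhgap11a: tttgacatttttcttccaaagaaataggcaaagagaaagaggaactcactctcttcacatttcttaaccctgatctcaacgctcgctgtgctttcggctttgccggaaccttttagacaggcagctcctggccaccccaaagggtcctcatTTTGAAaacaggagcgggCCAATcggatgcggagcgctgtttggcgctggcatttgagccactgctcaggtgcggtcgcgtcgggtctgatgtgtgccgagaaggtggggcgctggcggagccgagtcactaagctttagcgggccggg
Ube2c held 6 matches of CCAAT, Cdca3 3 and Arhgap11a 1, and each held TTTGAA 1 time. Of 61 called mitosis genes with an entry, 43 (70.5%) held CCAAT and 41 (67.2%) held TTTGAA, against 38% and 18.2% of the 27025 promoters in the table. Among 25 called replication genes the shares were 56% and 20%. A match of letters is a description and does not show binding. Cdca3, a trigger of mitotic entry, fell by 4.87, and Arhgap11a, a GTPase activator of cytokinesis, by 3.65.

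Genes of glucose use fell with age in hypoxia. Of 21 measured genes of glycolysis and glucose handling, 17 were lower at P30 and 1 higher, with a median of -1.22, and with centred arrays 12 were lower and 1 higher. Slc2a1, the glucose transporter GLUT1, had signals of 10.44, 10.10, 9.69, 10.00 and 9.96 in hypoxic P30 samples, against 11.88, 11.47, 11.63, 11.02 and 11.29 in hypoxic P8 samples, a difference of -1.42 ± 0.22 (adjusted p = 8.75e-05). In normoxia the same gene was at 9.69, 9.44, 10.11 and 10.37 at P30, against 8.60, 8.70, 8.22 and 8.69 at P8, and rose by 1.35 ± 0.25. At P30 the oxygen groups overlapped, and at P8 they were apart by more than the range of either. Between hypoxia and normoxia the age effect differed by -2.77 ± 0.33 (adjusted p = 0.0003).

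The remaining glycolysis genes add both ends of the pathway. Slc16a3, the lactate exporter MCT4, had signals of 4.77 to 5.80 in hypoxic P30 and 7.94 to 9.36 in hypoxic P8 samples, and fell by 3.33 ± 0.27, or 10.1-fold. Pfkp, a phosphofructokinase, fell by 2.47 ± 0.26, and Pdk3, a kinase that shuts pyruvate dehydrogenase, by 2.33. Gpi1 (-2.50), Pgam1 (-2.07), Ldha (-1.78), Pgk1 (-1.29), Pkm (-1.07) and Tpi1 (-0.81) of the core pathway fell as well. Pfkfb1, which makes an activator of phosphofructokinase, was the 1 member that rose, by 1.57. In normoxia 4 of the 21 rose and 1 fell (median 0.11). Between the oxygen groups the age effect was called lower in hypoxia for 9 and higher for none, against 7.57% and 1.44% of named genes: Slc2a1, Gpi1, Pfkl, Pfkp, Aldoa, Pkm, Ldha, Slc16a3 and Pygl. With centred or quantile-normalized arrays it was called lower for 5, against 3.51% and 3.28%.

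Targets of the hypoxia-inducible factors were called in shares near those of all named genes. Of 14 measured, 3 rose and 6 fell in hypoxia (median -0.59), against 19.6% and 46.2% of named genes with the same median, and in normoxia 6 rose and 1 fell (median 0.56). Lox, the collagen cross-linking oxidase, had signals of 5.96 to 6.56 in hypoxic P30 and 9.30 to 10.40 in hypoxic P8 samples, and fell by 3.68 ± 0.34, beside a normoxic fall of 2.26. Egln3, an oxygen-sensing hydroxylase, fell by 2.14, Bnip3l of mitophagy by 1.94, Angptl4, an inhibitor of lipoprotein lipase, by 1.48, Ndrg1 by 1.23 and Hmox1, haem oxygenase, by 1.15. Ankrd37 rose by 1.62 ± 0.31, the glycoprotein hormone gene Stc2 by 1.20 and P4ha1, a collagen prolyl hydroxylase, by 0.76. Calls of the difference of the age effect were those of Bnip3 (-3.19), Ndrg1 (-2.55) and Pdgfb (-2.34), each higher at P30 than at P8 in normoxia by 1.32 to 2.78.

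Respiratory chain and TCA cycle genes went the other way. In hypoxia 16 of 20 were higher at P30 and 3 were lower, with a median of 1.26, and 17 and 2 with centred arrays. Ndufa4, a respiratory chain subunit, had signals of 19.65, 19.63, 19.65, 19.42 and 19.72 in hypoxic P30 samples, against 18.61, 18.34, 18.09, 18.61 and 18.20 in hypoxic P8 samples. These are among the brightest values of the table, whose maximum is 19.93, and the ages did not overlap. The rise was 1.24 ± 0.18 (adjusted p = 4.23e-05), beside 0.14 ± 0.20 in normoxia. Complex I genes made up most of the group: Ndufa5 (2.26), Ndufs4 (1.84), Ndufa2 (1.69), Ndufa6 (1.58), Ndufb10 (1.54) and Ndufs3 (1.47) rose, as did Uqcrfs1 (1.24) of complex III and Dlat (1.29) and Fh1 (1.28) of pyruvate and fumarate metabolism. Cox6a1, the liver-type cytochrome oxidase subunit that muscle replaces by another isoform, fell by 2.54 ± 0.26, Cox15, which makes haem a, by 1.78 and Mdh2 by 1.34.

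In normoxia 1 of the 20 respiratory genes rose and 2 fell, with a median of 0.17. Of the differences of the age effect, 1 passed the test, that of Fh1 (1.82), on the deposited scale, against 1.44% of named genes. With centred arrays 11 passed, against 17.1%, and with quantile normalization 6, against 7.06%. On the deposited scale 0 to 5 passed as higher when single samples were left out, so the count rests on the scaling and on single samples.

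Fatty acid oxidation genes did not rise together. Of 17 measured, 11 were lower and 3 higher at P30 in hypoxia, with a median of -0.87, and with centred arrays 7 were lower and 4 higher. Of named genes 46.2% were lower and 19.6% higher, or 28.7% and 31.7% with centred arrays. Ucp2, a mitochondrial carrier, fell by 4.35 ± 0.41. Acot1, an acyl-CoA thioesterase, had signals of 4.92, 5.61, 4.66, 5.03 and 5.20 in hypoxic P30 samples, against 8.44, 8.71, 9.32, 8.50 and 8.86 in hypoxic P8 samples, while all normoxic samples lay at 5.49 to 6.92. It fell by 3.68 ± 0.26 in hypoxia, with -0.34 ± 0.29 in normoxia and a difference of -3.34 ± 0.39 (adjusted p = 0.000269). Acot2 (-4.51) is a near-identical neighbour, so the arrays may not separate them. The carnitine shuttle enzymes Cpt1a (-1.74) and Cpt1b (-1.65) also fell, and Bdh1 of ketone use (2.48), Lpl, lipoprotein lipase (1.45), and Ech1 (0.75) rose. Normoxia gave 5 higher and 3 lower, with a median of 0.21.

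**Figure D2:**
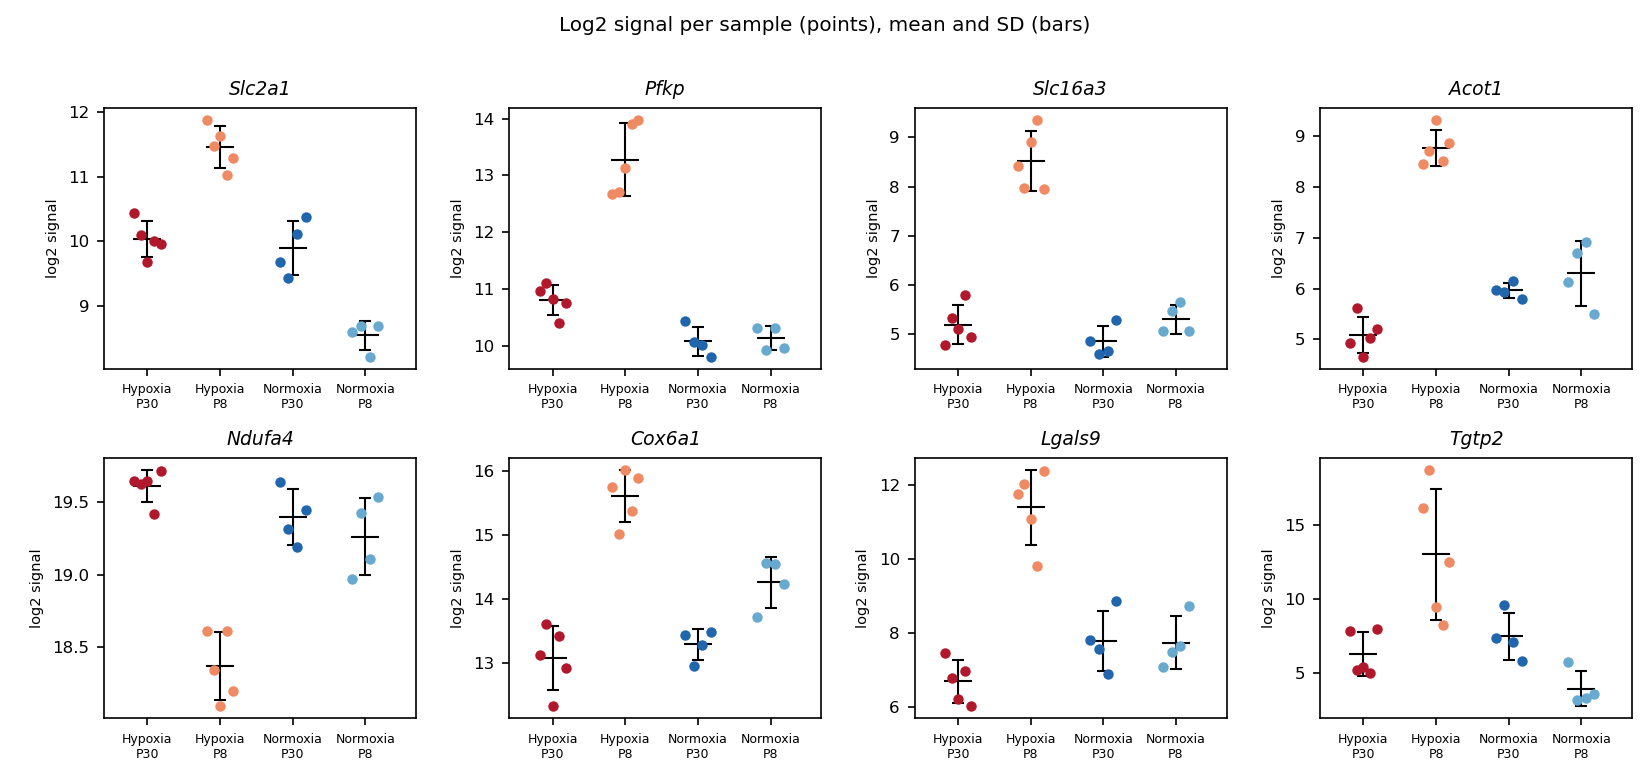
Log2 signal (vertical axes) of 8 genes of glucose and fatty acid use, the respiratory chain and the interferon response in each sample (points), by group, with the group mean and SD (black bars). In Slc2a1, Pfkp, Slc16a3, Acot1, Cox6a1 and Lgals9 every hypoxic P8 sample lies above all other samples, and in Ndufa4 below; in Tgtp2 the hypoxic P8 samples range between 8.27 and 18.78.

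Genes for amino acid supply and sterol synthesis fell. In the amino acid response list, driven by the transcription factor ATF4, 15 of 17 were lower and 1 higher in hypoxia (median -1.51), and 10 and 1 with centred arrays. Shares of named genes were 46.2% lower and 19.6% higher, or 28.7% and 31.7% with centred arrays. Psat1 of serine synthesis had signals of 3.41 to 4.82 in hypoxic P30 and 8.12 to 9.20 in hypoxic P8 samples, and fell by 4.52 ± 0.33 (adjusted p = 1.34e-08). Slc7a5, the large neutral amino acid transporter, fell by 3.83 ± 0.32, Asns, asparagine synthetase, by 2.62, Mthfd2 of mitochondrial folate metabolism by 2.90 and Atf4 itself by 1.65. In normoxia 1 rose and 1 fell. An age effect called lower in hypoxia than in normoxia was found for 5, against 7.57% of named genes. These were Psat1 (-2.65), Slc7a5 (-2.86), Asns (-2.57), Mthfd2 (-2.58) and Wars (-3.71). That of Asns ended with quantile normalization (adjusted p = 0.0537), and Wars is also induced by interferon.

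Of 17 lipid synthesis and storage genes, 15 were lower and 1 higher in hypoxia (median -1.51), and 10 and 1 with centred arrays. Named genes gave 46.2% lower and 19.6% higher, or 28.7% and 31.7% with centred arrays. Hmgcs1, at the entry of sterol synthesis, had signals of 10.10 to 10.79 in hypoxic P30 and 12.15 to 13.49 in hypoxic P8 samples, a fall of 2.33 ± 0.25. Sqle, squalene epoxidase, fell by 2.60, Idi1 by 2.55 and the regulator Srebf2 by 2.46, while Gpam of glycerolipid synthesis rose by 1.36. In normoxia 3 rose and 2 fell. Lipe, the hormone-sensitive lipase, fell by 0.92 in hypoxia and rose by 2.08 in normoxia. Myc, the growth transcription factor, had signals of 3.77 to 5.41 in hypoxic P30 and 8.44 to 9.06 in hypoxic P8 samples, and fell by 3.85 ± 0.37. With a normoxic difference of -0.42 ± 0.41 it gave a difference of the age effect of -3.43 ± 0.55 (adjusted p = 0.0049).

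Few genes of the list of ribosome and translation genes were called in hypoxia. Rpl3l, the ribosomal protein gene with the large rise given above, is not in that list. Of 23 measured members, 3 rose and 5 fell (median -0.25), while in normoxia 1 rose and 13 fell (median -0.88). Of named genes 19.6% rose and 46.2% fell in hypoxia, and 13.8% and 14.1% in normoxia. For the difference of the age effect, limma called none of them on the deposited values (9 higher and 1 lower at an unadjusted p of up to 0.05). It called 8 higher with centred and 4 with quantile-normalized arrays, against 17.1% and 7.06% of named genes. Eef1a2, the elongation factor form of adult muscle, had signals of 15.25 to 15.47 in hypoxic P30 and 12.30 to 13.69 in hypoxic P8 samples, and rose by 2.19 ± 0.29. Its widespread paralog Eef1a1 fell by 0.59. Eif5a fell by 2.33 and Eif4a1, the initiation helicase, by 1.40.

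Among 11 ion channel genes 5 rose and 3 fell in hypoxia, against 19.6% and 46.2% of named genes. Kcnd2, a pore subunit of the transient outward potassium current, had signals of 9.38, 8.55, 8.10, 7.69 and 8.36 in hypoxic P30 samples, against 5.13, 4.06, 4.91, 4.70 and 3.53 in hypoxic P8 samples. The ages were apart in hypoxia and overlapped in normoxia, where the gene was at 7.14 to 8.84 at P30 and 5.37 to 7.91 at P8. It rose by 3.95 ± 0.45 in hypoxia, with 1.13 ± 0.50 in normoxia. The difference of 2.82 ± 0.67 (adjusted p = 0.0449) lost its call when any of 14 single samples was left out (adjusted p 0.0512 to 0.096). Kcnip2, the accessory subunit of the same current, rose by 2.27 ± 0.31, and Cacna2d1, Scn4b and Scn4a rose by 0.66 to 1.25. Scn3b, a sodium channel beta subunit, fell by 2.05, Kcnq1 by 1.62 and Kcnh2 by 1.25. Gja1, connexin 43, was at -0.96 (adjusted p = 0.051).

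Of 7 calcium handling genes 2 rose and 3 fell, near the 19.6% and 46.2% of named genes. Hrc, a calcium-binding protein of the sarcoplasmic reticulum, had signals of 16.71, 16.07, 16.78, 17.15 and 17.15 in hypoxic P30 samples, against 13.93, 13.76, 12.87, 13.14 and 13.25 in hypoxic P8 samples, and rose by 3.38 ± 0.28, or 10.4-fold. The normoxic rise was 1.50 ± 0.31 and the difference 1.88 ± 0.41 (adjusted p = 0.0277), a call that ended without any of 6 single samples (adjusted p 0.0525 to 0.064). Trdn, triadin, rose by 1.21. Slc8a1, the sodium-calcium exchanger prominent in the fetal heart, fell by 1.68, Srl, sarcalumenin, by 1.12 and Camk2b by 1.22. Prkar1a, a regulatory subunit of protein kinase A, fell by 1.63 ± 0.20, beside a normoxic fall of 1.19.

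Matrix genes split into those that rose and those that fell: 13 and 13 of 31 in hypoxia, and 5 and 10 in normoxia, against 19.6% higher and 46.2% lower of named genes in hypoxia. The normoxic count of 5 was 3 to 6 when single samples were left out. Thbs1, thrombospondin 1, had signals of 3.88 to 4.99 in hypoxic P30 and 9.87 to 10.67 in hypoxic P8 samples and fell by 5.74 ± 0.40. Eln, elastin, fell by 5.46, Tnc, tenascin C, by 4.67, Fn1, fibronectin, by 4.61 and Fbln2, fibulin 2, by 3.22. Among those that rose were 4 of the small leucine-rich family, Lum (2.41), Ecm2 (2.05), Dcn (1.79) and Ogn (1.68). Dcn, decorin, was at 19.56, 19.41, 19.84, 19.51 and 19.37 in hypoxic P30 samples, against 17.58, 17.99, 17.31, 18.14 and 17.74 in hypoxic P8 samples, while normoxic samples of both ages lay at 19.10 to 19.84. Only the hypoxic P8 samples were low. The difference of the age effect was called higher for Dcn (1.82 ± 0.30, adjusted p = 0.00539), Lum (2.46) and Ecm2 (2.16), and lower for Fbln2 (-2.98). Of named genes 1.44% were called higher and 7.57% lower. With centred arrays 11 of the 31 were called higher and 1 lower, against 17.1% and 3.51%. Quantile normalization gave 8 higher and 1 lower, against 7.06% and 3.28%.

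Markers of other cell types also moved, and their part in the results above was not tested. Their counts stand against 19.6% of named genes higher and 46.2% lower in hypoxia. In whole heart RNA, fewer cells of a type and less RNA per cell cannot be told apart. Of 8 erythroid markers 7 fell and 1, Ank1, rose, and the mean of the list was 6.49 to 6.94 in hypoxic P30, 9.03 to 10.11 in hypoxic P8, 6.29 to 7.69 in normoxic P30 and 7.14 to 9.26 in normoxic P8 samples. Alas2, the erythroid enzyme of haem synthesis, fell by 6.33 and Ahsp, which stabilises alpha globin, by 4.74. All 5 epicardial markers fell (list mean 3.91 to 4.22 in hypoxic P30 and 5.48 to 6.34 in hypoxic P8 samples), Krt18 by 3.18. So did 3 of 4 neutrophil markers (list mean 3.75 to 4.38 in hypoxic P30 and 4.85 to 6.86 in hypoxic P8 samples). The hypoxic P30 means of both lists were dim, below the table's 25th percentile of 5.48. With centred arrays 3 epicardial, 2 neutrophil and 5 erythroid markers were lower, and with quantile normalization 3, 2 and 7. Without hypoxic P8 samples 4 and 5 the counts were 5, 2 and 7. Of named genes 28.7%, 31.5% and 41.1% were lower in these 3 settings. Of 9 endothelial markers 5 fell, among them Cldn5 (-2.59), Ecscr (-2.17), Sox18 (-1.66) and Icam2 (-1.57), and 1 rose, Aqp1. These endothelial counts were near the shares of named genes. The means of this list overlapped, at 9.59 to 9.87 in hypoxic P30 and 9.68 to 10.71 in hypoxic P8 samples. Of 7 fibroblast markers 2 rose (Dcn and Lum) and 2 fell (Col1a1 and Meox1), with overlapping means of 11.62 to 12.77 in hypoxic P30 and 11.61 to 12.20 in hypoxic P8 samples.

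Macrophage markers were higher at P30 in normoxia and, with all samples, mostly did not pass the test in hypoxia. Of 10 markers 1 rose and 2 fell in hypoxia (median 0.33), against 7 higher and none lower in normoxia (median 1.68). Of named genes 19.6% rose and 46.2% fell in hypoxia, and 13.8% and 14.1% in normoxia. Without hypoxic P8 samples 4 and 5, 4 markers rose and 1 fell in hypoxia, against 16.8% and 41.1% of named genes. With centred or quantile-normalized arrays 3 rose and 1 fell. The mean of the list was 6.85 to 7.22 in hypoxic P30, 6.52 to 7.76 in hypoxic P8, 6.88 to 7.60 in normoxic P30 and 5.03 to 5.68 in normoxic P8 samples, so that normoxic P8 hearts alone were low. Differences of the age effect were called for Fcer1g (-3.10) and Cd68 (-1.96). That of Fcer1g ended with quantile normalization (adjusted p = 0.0586).

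Interferon-induced genes had medians of opposite sign in the 2 oxygen groups, and the hypoxic P8 samples differed widely among themselves. Of 39 measured, 37 were lower at P30 in hypoxia and none higher, with a median of -3.42 (-1.55 without hypoxic P8 samples 4 and 5). In normoxia limma called none in either direction, with 8 higher and none lower at an unadjusted p of up to 0.05, and the median was 1.27. Leaving out single samples gave 0 to 2 higher. The spread in that test is shared by all 4 groups, so the wide hypoxic P8 values enter it. Tgtp2 (3.53 in normoxia) was called higher there by limma with the normoxic groups alone (adjusted p = 0.0191). The same held without hypoxic P8 samples 4 and 5 (0.0208). The mean of the list was 6.32 to 6.99 in hypoxic P30 samples. In hypoxic P8 samples it was 12.05 in number 4, 13.06 in number 5, 7.95 in number 6, 7.65 in number 7 and 10.22 in number 8. In normoxic P30 samples it was 6.80 to 8.20, and in normoxic P8 samples 5.71 to 6.52. All 5 hypoxic P8 samples exceeded all hypoxic P30 samples, but samples 4, 5 and 8 by far more than 6 and 7. Samples 4 and 5 were also the highest in the macrophage and neutrophil lists.

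Without samples 4 and 5, 18 of the 39 were called lower in hypoxia in place of 37, a share near the 41.1% of named genes called lower without them, and the median was -1.55. With all samples, 24 were called lower with centred and 27 with quantile-normalized arrays. Tgtp2, an interferon-induced GTPase, shows the spread: its signals were 7.86, 5.23, 5.43, 4.97 and 8.00 in hypoxic P30 samples, against 16.15, 18.78, 9.46, 8.27 and 12.54 in hypoxic P8 samples. The fall was 6.74 ± 1.42 (adjusted p = 0.0017), the widest SE among the 105 genes chosen by the naming rule, and a near-identical copy, Tgtp1, may share its signal. Lgals9, galectin 9, was more even, at 7.47, 6.78, 6.22, 6.99 and 6.02 in hypoxic P30 samples, against 11.75, 12.02, 11.07, 9.80 and 12.36 in hypoxic P8 samples, a fall of 4.70 ± 0.45 (adjusted p = 2.74e-07). Rsad2, the antiviral enzyme viperin, fell by 5.19 ± 0.53 and Lgals3bp, a galectin-binding glycoprotein, by 4.22 ± 0.44. The difference of the age effect was called lower for 13 of the 39, with 10 for centred and 8 for quantile-normalized arrays, 20 without samples 4 and 5 (against 15.2% of named genes), and 5 to 31 when single samples were left out. Its size was largest for Tgtp2 (-10.27 ± 2.13, a call that ended without normoxic P30 sample 3, adjusted p = 0.0536, and with trend and robust settings of eBayes, 0.0571), followed by Ifi44 (-6.56) and Bst2 (-6.25).

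The starts of Lgals9, Rsad2 and Lgals3bp are shown since these 3 had the largest statistics in the list, again from RefSeq on GRCm38.p6. Capitals mark GAAA, any 2 bases, GAAA on either strand, the letters of an interferon response element. Lgals9 lies at chr11:78984875-78985174, Rsad2 at chr12:26456403-26456702 and Lgals3bp at chr11:118401910-118402209, all on the - strand.
Lgals9: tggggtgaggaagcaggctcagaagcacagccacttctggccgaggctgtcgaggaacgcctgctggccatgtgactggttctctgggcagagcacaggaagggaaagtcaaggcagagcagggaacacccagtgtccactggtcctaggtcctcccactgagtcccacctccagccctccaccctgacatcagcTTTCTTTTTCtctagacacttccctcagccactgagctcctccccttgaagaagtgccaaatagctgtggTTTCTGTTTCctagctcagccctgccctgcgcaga
Rsad2: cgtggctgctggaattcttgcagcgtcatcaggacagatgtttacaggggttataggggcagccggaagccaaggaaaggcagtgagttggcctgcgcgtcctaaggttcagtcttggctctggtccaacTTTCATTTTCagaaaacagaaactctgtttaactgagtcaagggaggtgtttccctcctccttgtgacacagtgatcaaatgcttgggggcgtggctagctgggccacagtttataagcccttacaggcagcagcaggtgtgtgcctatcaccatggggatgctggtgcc
Lgals3bp: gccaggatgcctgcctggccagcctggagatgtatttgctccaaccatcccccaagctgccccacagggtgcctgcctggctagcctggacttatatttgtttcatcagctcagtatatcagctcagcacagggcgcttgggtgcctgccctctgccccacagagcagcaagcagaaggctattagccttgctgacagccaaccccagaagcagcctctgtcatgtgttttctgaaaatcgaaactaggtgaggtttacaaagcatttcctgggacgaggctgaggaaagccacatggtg
The motif stood 2 times in Lgals9, 1 time in Rsad2 and 0 times in Lgals3bp, which says only that these letters are not in this window. Of 27 called interferon members with an entry, 14 (51.9%) held it, against 3.49% of all 27025 promoters and 5 of 61 called mitosis genes.

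**Figure D3:**
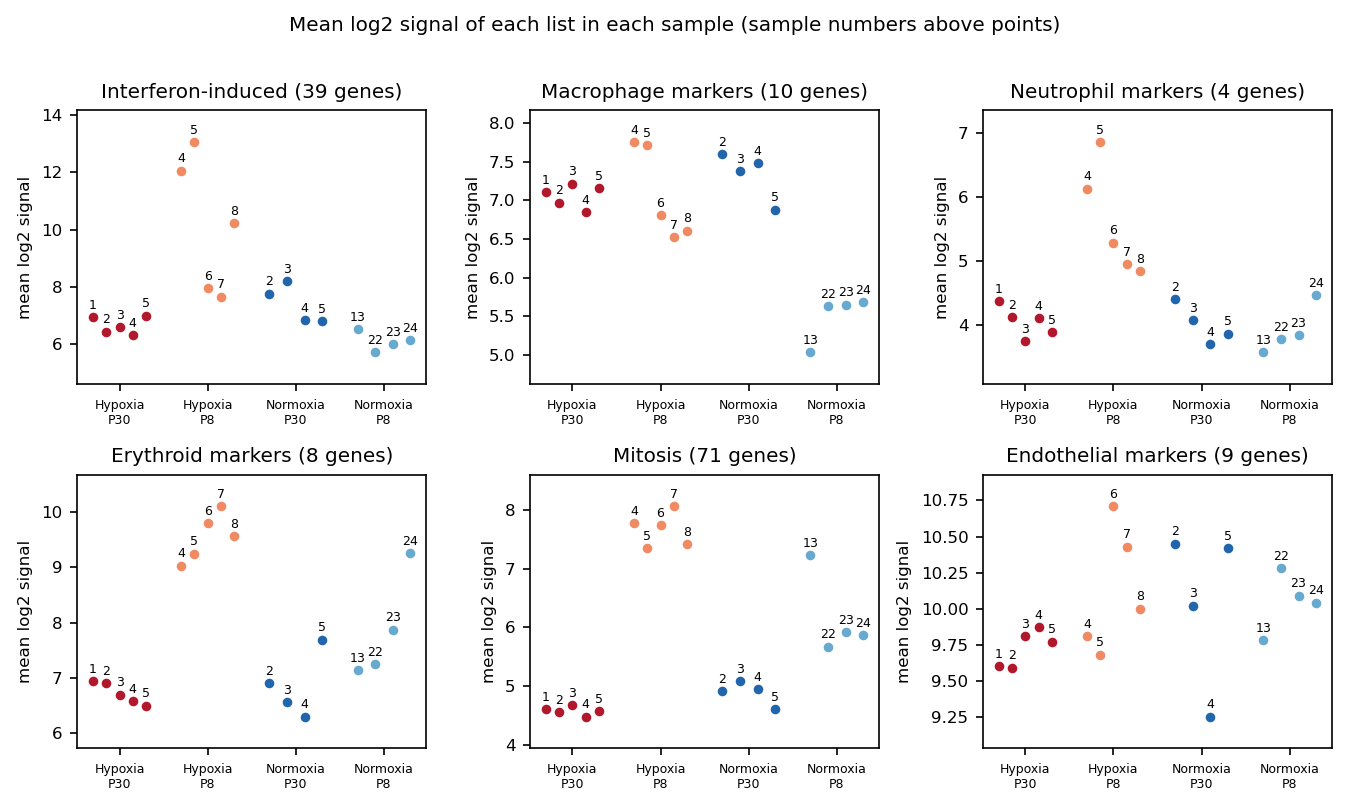
Mean log2 signal (vertical axes) of 6 gene lists in each sample (points, with the sample's number), by group. Hypoxic P8 samples 4, 5 and 8 lie between 10.22 and 13.06 in the interferon list, all other samples between 5.71 and 8.20; in the mitosis list normoxic P8 sample 13 lies at 7.23, near the hypoxic P8 samples.

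Of 6 circadian genes 4 rose and 1 fell in hypoxia, and 4 rose in normoxia. Of named genes 19.6% rose and 46.2% fell in hypoxia, and 13.8% rose in normoxia. Dbp, an output regulator of the clock, had signals of 15.11, 15.11, 13.23, 15.91 and 14.94 in hypoxic P30 samples, against 10.39, 9.41, 11.56, 10.45 and 11.12 in hypoxic P8 samples, and rose by 4.27 ± 0.55. The hour of sampling is not in the labels. Nr1d2 rose by 3.01, Rora by 2.80 and Per3 by 2.16, and Npas2 fell by 2.74. Nr1d1 did not pass in hypoxia (-0.23) and rose by 2.85 in normoxia, a difference of -3.08 that was called. Of 5 genes of thyroid and steroid hormone signalling 3 rose and 1, Cdkn1a, fell in hypoxia, against 19.6% and 46.2% of named genes. Thrb, a thyroid hormone receptor, rose by 2.14 and the mineralocorticoid receptor gene Nr3c2 by 1.33. Cdkn1a, the cell cycle inhibitor p21, had signals of 9.49 to 10.54 in hypoxic P30 and 12.41 to 13.16 in hypoxic P8 samples and fell by 2.83 ± 0.50. Nppb, the natriuretic peptide of the loaded heart, was at 12.88 to 13.97 in hypoxic P30 and 14.83 to 16.53 in hypoxic P8 samples, a fall of 1.95 ± 0.59 (adjusted p = 0.0276). That call ended without sample 4 of hypoxic P8 (adjusted p = 0.0915), without hypoxic P30 sample 1 (0.0769) or 5 (0.0763) and with both other scalings (0.0599 and 0.148).

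**Figure D4:**
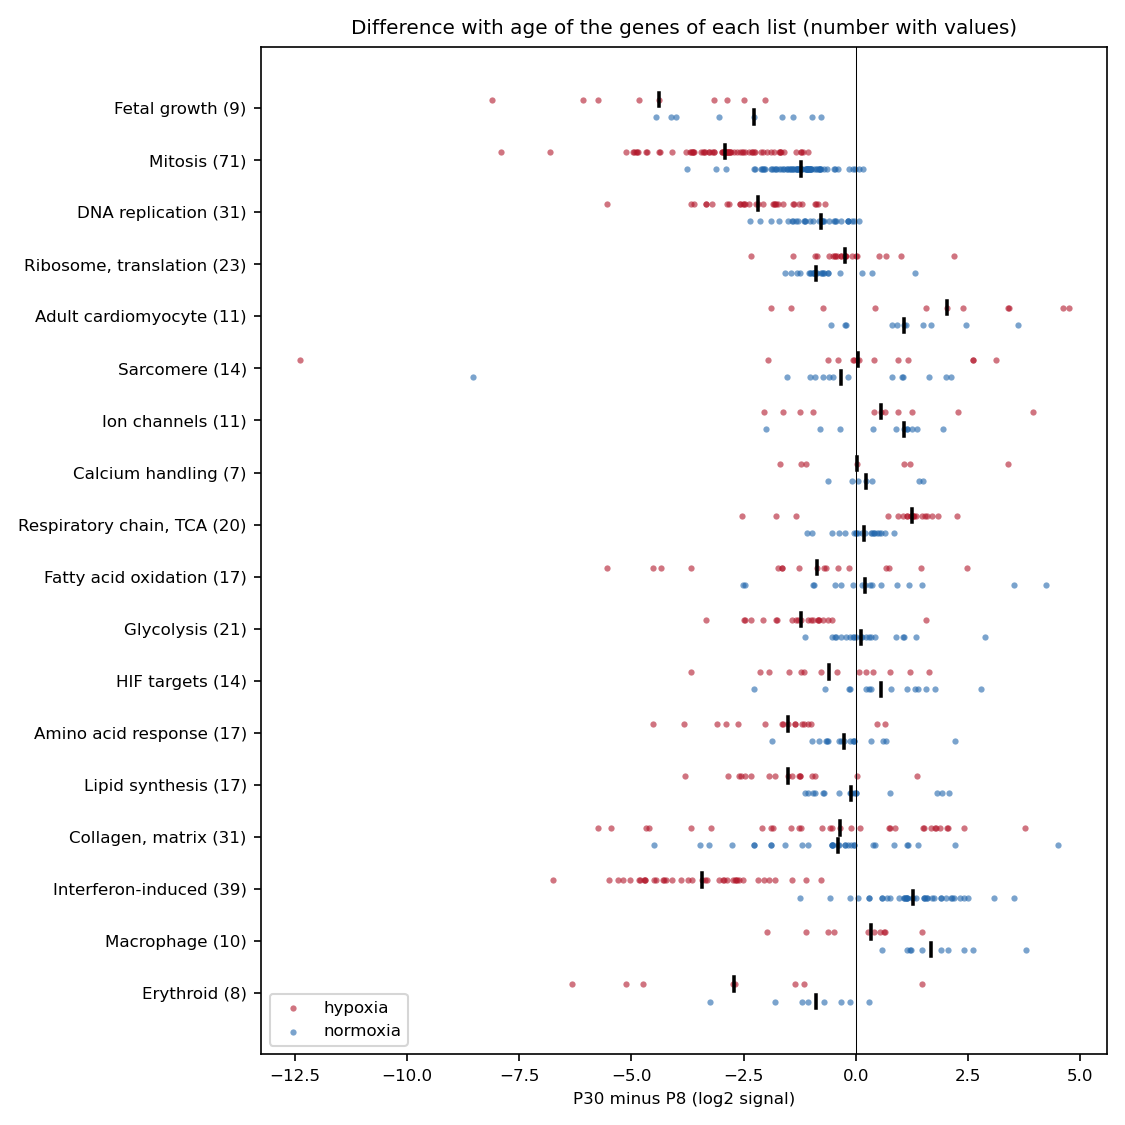
Difference of P30 minus P8 in log2 signal (horizontal axis) of each gene (points) of 18 lists, in hypoxia (red) and normoxia (blue), with the median (black bar). All mitosis and fetal growth genes lie left of 0 in hypoxia, and the interferon list has a median of -3.42 in hypoxia (-1.55 without P8 samples 4 and 5, not drawn) and 1.27 in normoxia.

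The courses in hypoxia and in normoxia come from different samples and could be set side by side over all probes. Of the 1237 probes higher at P30 in hypoxia, 517 (41.8%) were also called higher in normoxia, which is 60.2% of the normoxic calls, and 2 were called the other way. Of the 2067 lower in hypoxia, 565 (27.3%) were also called lower in normoxia, 73.6% of the normoxic calls, and 10 the other way. Normoxia alone gave 859 higher (18.3%) and 768 lower (16.3%). The probes higher in hypoxia had a median difference of 1.25 in hypoxia and 0.90 in normoxia, and those lower had -1.43 in hypoxia and -0.67 in normoxia. The hypoxic medians are favoured, as the probes were picked by the hypoxic values.

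The difference of the age effect itself was called higher in hypoxia for 39 probes (0.829%) and lower for 204 (4.34%). This split depends on scaling: it was 476 higher (10.1%) and 94 lower (2%) with centred arrays, and 193 higher (4.1%) and 87 lower (1.85%) with quantile normalization. Without hypoxic P8 samples 4 and 5 it was 65 higher (1.38%) and 413 lower (8.78%). Without normoxic P8 sample 13 it was 93 higher, without normoxic P30 sample 3 it was 21 higher and 118 lower, without normoxic P30 sample 4 it was 24 higher, and without hypoxic P8 sample 5 it was 325 lower. Among the 2031 probes with no symbol, 1 was called lower (0.0492%) and none higher (0%) by limma, with 49 higher and 120 lower at an unadjusted p of up to 0.05. The authors had not listed these probes for a hypoxia difference, apart from 4 whose symbols had been turned into dates. The largest negative statistics belonged to Csrp1, a LIM protein (-4.91 ± 0.55), Rasl11b, a small GTPase (-3.20 ± 0.35), Lgals3bp (-5.36), Acot1 (-3.34), Slc2a1 (-2.77) and Impa2, an inositol phosphatase (-2.52). Csrp1 was at 8.04 to 9.47 in hypoxic P30, 12.45 to 14.03 in hypoxic P8, 8.55 to 10.56 in normoxic P30 and 9.24 to 10.09 in normoxic P8 samples. The largest positive ones were Dhrs7c, a dehydrogenase of striated muscle (2.20 ± 0.34), Dcn (1.82), Aqp1 (3.68), Htra1, a serine protease (1.68), Tmem251 (1.86) and Plekhh1 (3.01). Dhrs7c was at 13.52 to 13.76 in hypoxic P30, 11.59 to 12.33 in hypoxic P8, 12.72 to 13.47 in normoxic P30 and 12.82 to 13.90 in normoxic P8 samples.

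A called change in opposite directions was found in 12 probes, of which 11 were named. Acer2, Slc2a1, Agtrap, Plbd1, Lipe, Cybb, Pfkl, Rnf31 and Ndrg1 fell with age in hypoxia and rose in normoxia. Pfkl, the liver-type phosphofructokinase, was at 10.46 ± 0.26 in hypoxic P30, 11.46 ± 0.37 in hypoxic P8, 10.46 ± 0.41 in normoxic P30 and 9.39 ± 0.21 in normoxic P8 samples (SD, n = 5, 5, 4 and 4). The P30 means were equal to 2 decimals and the P8 means lay on either side of them. Doc2a and Htra1 rose in hypoxia and fell in normoxia. The call of Htra1 in hypoxia (0.59 ± 0.20, adjusted p = 0.0478) ended without dim probes (adjusted p = 0.0603) and without samples 4 and 5 (0.284). At P30 itself hypoxia against normoxia gave no called probe by limma, 656 probes at an unadjusted p of up to 0.05, and 4 when adjusted over the value table alone, whereas 976 were called at P8.

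**Figure D5:**
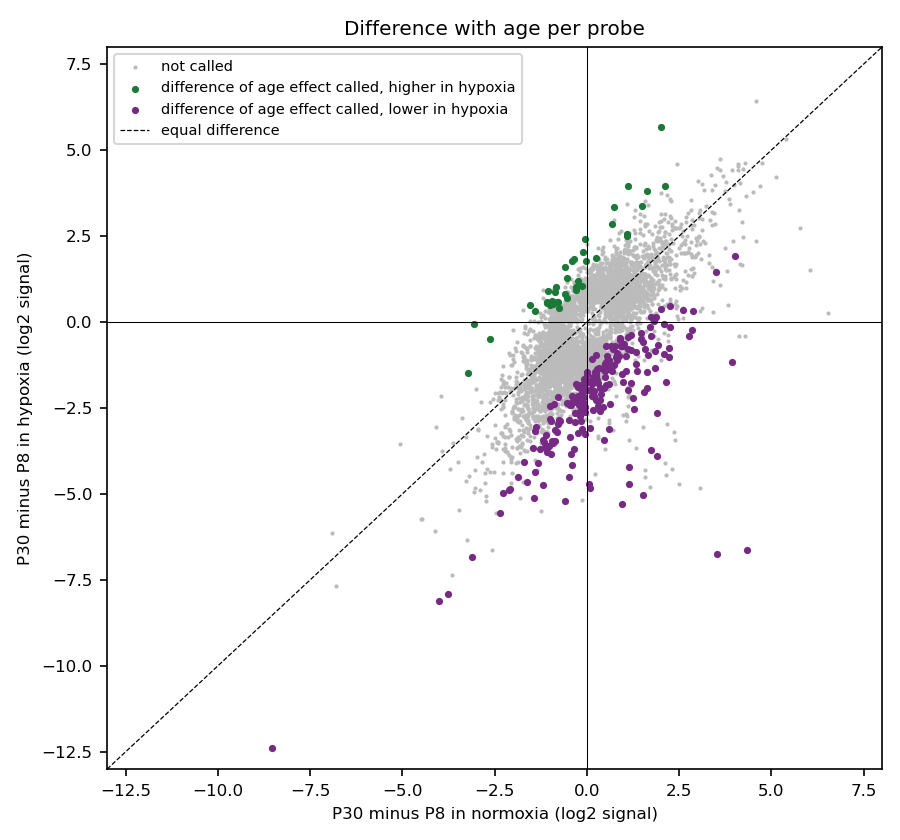
Difference of P30 minus P8 in log2 signal of each of 4704 probes in normoxia (horizontal axis) and in hypoxia (vertical axis), with the line of equal difference (dashed). The 204 probes whose age effect was called lower in hypoxia (purple) lie below the line and the 39 called higher (green) above it; Tnni1 is the point at -8.53 and -12.39.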

How the data were processed

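Heart RNA was measured in 18 samples on Clariom S arrays, grouped by age and oxygen as the labels give them. The authors deposited log2 signals per transcript cluster, and per the submitters' processing notes they used Affymetrix Expression Console. The normalization, the version and the rule by which the 4704 probes were selected are not given in the sources used here. Gene lists deposited by the authors, which compare hypoxia with normoxia at 1 age per the file headers, give a p-value and a q-value and were used for names and for the number of tests. Of the probes, 2568 have 1 symbol, 105 several and 2031 none here, 4 symbols had been turned into dates, and 89 symbols were updated through a RefSeq table of GRCm38.p6. Identical values in 34 probes were kept. A gene is represented by its brightest probe.

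Linear models over the 4 groups came from limma 3.58.1 (lmFit, contrasts.fit and eBayes, run in R 4.3.3), with 14 residual and 5.98 prior degrees of freedom. Benjamini-Hochberg adjustment used 22205 tests, worked out from p, q and rank in the gene lists, since the deposited values are a selection. The threshold was an adjusted p of 0.05. The fit was tested on simulated data. Dim values carry no detection call, and the number of arrays limits the precision. The members and lists were chosen with earlier results of these data known. Genes were named by a rule: the 12 largest rises and falls in hypoxia that do not overlap and whose brighter group mean reaches the table's median (7.69), the 3 strongest called members of each list (1 where fewer than 3 were called), the 6 largest statistics of the difference of the age effect in each direction, and check genes. Further list members named, and genes of opposite course, were chosen after their values were seen. Promoters come from RefSeq, where 74 of the 105 named genes had an entry. Alternatives were other scalings, adjustment over the table alone, a filter on dim probes, other fits and samples left out. The deposited enrichment tables were not used. Some genes are not reported here.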

Additional observations from a re-analysis of the deposited data

Results flagged for a closer look

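Among the 105 genes chosen by the naming rule, 34 had a called difference of the age effect between hypoxia and normoxia, and over all probes the call was higher for 39 and lower for 204. The differences given here are those of hypoxia less those of normoxia, on the log2 scale. Among cell cycle and growth genes they were -4.15 for Ube2c, -3.70 for Ccna2, -2.75 for Cdca3, -3.18 for Rrm2, -2.58 for Prim1, -3.43 for Myc, -4.09 for Mest and -3.86 for Tnni1. The call of Mest ended under 17 alternatives, among them quantile normalization (-3.87, adjusted p = 0.0604) and centred arrays (-3.57, adjusted p = 0.0544). Among metabolic genes they were -2.77 for Slc2a1, -2.88 for Slc16a3, -2.42 for Pfkp, -3.34 for Acot1, -2.65 for Psat1, -2.86 for Slc7a5 and -2.57 for Asns. Among interferon and blood cell genes they were -10.27 for Tgtp2, -4.75 for Lgals9, -4.61 for Rsad2, -5.36 for Lgals3bp, -3.10 for Fcer1g and -3.55 for Ahsp. Other negative values were -4.91 for Csrp1, -3.20 for Rasl11b and -2.52 for Impa2. Positive values were 3.68 for Aqp1, 2.82 for Kcnd2, 1.88 for Hrc, 1.82 for Dcn, 2.46 for Lum, 2.20 for Dhrs7c, 1.68 for Htra1, 1.86 for Tmem251 and 3.01 for Plekhh1.

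Single samples lay far from the others of their group in 21 of 420 groups of values (5%), and chance alone flags about 1 in 20. In hypoxic P30 samples these were Ckmt2 in sample 5 (18.18, high), Cmya5 in sample 2 (11.80, low), Slc38a4 in sample 3 (8.53, high), Myc in sample 1 (3.77, low) and Hopx in sample 2 (11.49, high). In hypoxic P8 samples they were Scn3b in sample 4 (5.05, low) and Thrb in sample 8 (4.46, low). In normoxic P30 samples, number 5 was low in Rrm2 (5.14), Mt1 (17.16), Nr1d2 (10.89) and Rora (5.47) and high in Gata4 (12.22). Further, Ckmt2 was low in sample 4 (16.81), Xirp2 high in sample 2 (10.94), Krt18 low in sample 3 (3.09) and Krt19 low in sample 2 (2.47). In normoxic P8 samples, number 13 was high in Tgtp2 (5.74) and E2f8 (8.76) and low in Dhrs7c (12.82) and Htra1 (11.92), and number 24 was low in Meox1 (4.01).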

How the results depend on the processing

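In hypoxia, 1237 probes higher at P30 became 1078 to 1258 and 2067 lower became 1873 to 2074 when single samples were left out. The lower count was 1285 with quantile normalization and 1145 with centred arrays, whose medians remove the downward shift by construction. With a replicate block the counts were 404 higher and 781 lower. That fit compared ages within shared sample numbers, so of the hypoxic P8 samples only 4 and 5 informed it. Its lower counts therefore also reflect the loss of the other hypoxic P8 samples. Hypoxic P30 and P8 samples share the numbers 4 and 5, and the labels do not say whether a shared number pairs them. Their deviations from the group means correlated at -0.21 (number 4) and 0.18 (number 5). So few values, without those of unlike numbers beside them, cannot decide this. In normoxia, leaving out single samples gave 588 to 860 higher and 491 to 767 lower, adjustment over the table alone gave 1289 and 1380, and a fit of the 2 groups alone gave 459 lower. Between oxygen groups, the age effect was called higher for 193 (quantile), 476 (centred), 328 (table alone), 64 (eBayes with trend and robust), 65 (without hypoxic P8 samples 4 and 5) and 21 to 93 probes (single samples left out), and lower for 87, 94, 863 (table alone), 413 (without samples 4 and 5) and 118 to 325. Signs of the hypoxic difference turned in 3 uncalled genes: Hopx to 0.14 (quantile) and 0.28 (centred), with -0.34 to -0.12 as single samples were left out; Plekhh1 to 0.42, 0.41, 0.04 (without samples 4 and 5) and up to 0.10 from -0.33 (single samples); Myh7 to 0.09 (centred). Apart from these, the 105 named genes kept their sign under the settings run, while 6 to 7 lost a call under the other scalings, 6 without samples 4 and 5 and 17 under the block. The cause was not tested. Dim signals limit the size of falls such as that of Tnni1.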

Other observations

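Further genes were picked by the naming rule. Ncam1, a neural cell adhesion molecule, had signals of 7.51 to 9.63 in hypoxic P30 samples and of 14.65, 14.65, 18.26, 15.27 and 18.18 in hypoxic P8 samples, a fall of 7.37 ± 0.65 (limma, adjusted p = 1.3e-07). Samples 6 and 8 were higher than the rest of the P8 group. Ube2l6, the conjugating enzyme of the ubiquitin-like protein ISG15, was at 6.65 to 7.57 in hypoxic P30 and 12.25 to 15.23 in hypoxic P8 samples and fell by 6.62 ± 0.76. In normoxia it was at 6.66 to 10.88 at P30 and 9.02 to 13.34 at P8, a difference of -2.56 that did not pass. Vtn, vitronectin, rose by 3.05 ± 0.33 in hypoxia, Gata4, a cardiac transcription factor, fell by 2.14 ± 0.31, and Mt1, a metallothionein, rose by 2.16 ± 0.51 with overlapping ages. The call of Mt1 ended without hypoxic P8 samples 4 and 5 (adjusted p = 0.0732). Gzma, granzyme A, was at 8.75 in hypoxic P8 sample 4, 8.57 in sample 5 and 3.93 to 4.71 in the other P8 samples, and at 2.70 to 3.99 in hypoxic P30 samples.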
